A study of Mus musculus with 18 samples.

Results

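CatSper is the calcium channel of the sperm tail, and the 10 genes described here code for subunits of it: Catsper1, Catsper2, Catsper3, Catsper4, Catsperb, Catsperd, Catsperg1, Catsperg2, Catsperz and Efcab9. They were taken by name from a table of read counts for 54232 genes in mouse round spermatids (RS), and all 10 were among the 21058 genes that passed a filter on low counts. The strongest differences among them from wild-type (WT) RS were in Efcab9 and Catsper3, whose mRNA was lower in RS of both GRTH mutants, with means of 57.9% to 63.3% of WT for Efcab9 and 59.5% to 69.4% for Catsper3, while the genes for the large extracellular subunits Catsperb, Catsperd, Catsperg1 and Catsperg2 were not called in either mutant.

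GRTH (DDX25) is an RNA helicase of testicular germ cells and Leydig cells, needed for round spermatids to elongate, and the study asked how the RS transcriptome differs without it or without its phosphorylated form. RNA was taken from RS of WT mice, of GRTH knock-out (KO) mice, which lack the protein, and of GRTH knock-in (KI) mice, which per the study carry a human GRTH gene with a missense mutation and make no phosphorylated GRTH. The study reports that KI mice keep the non-phosphorylated form. All mice were 75 to 85 days old, and no treatment is named for any group. RS came from enzyme-digested testes by sedimentation through an albumin gradient, with 18 libraries, 6 for each genotype. They were made from total RNA without selection of polyA, and neither the number of animals behind a library nor the strain is given in the sources used here. A WT library held 20606738 to 26776555 counts on genes, a KO library 18766971 to 25654453 and a KI library 19996042 to 24915182.

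CATSPER1 to CATSPER4 together form the ion-conducting pore, and each contributes a voltage-sensing domain and a pore domain. The auxiliary subunits β, γ, δ and ε are transmembrane proteins with large extracellular parts, and EFCAB9 and CATSPERζ form a cytoplasmic pair, in which EFCAB9 is the calcium-binding partner. The channel is assembled in the membrane of the sperm tail, admits calcium when the sperm cytoplasm becomes alkaline, and is required for hyperactivated motility and male fertility. RS come before the stages at which the tail is completed.

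The libraries were examined before the genes. The targeted gene, Ddx25, had a level of 567 ± 24.7 CPM in WT (normalized CPM, which are counts put on a common library size with TMM factors, SD, n = 6) and 70.0 ± 14.8 CPM in KO (SD, n = 6). The deposited counts thus still held reads on this gene in KO. In KI it lay between 0.0456 and 0.519 CPM in 5 libraries and at 56.9 CPM in the library labelled KI 4, which is in the range of the KO libraries, 47.7 to 90.9 CPM. That library goes against its label, and every KI value below includes it unless stated. Since the GRTH gene of KI mice is described as human, counts on mouse Ddx25 are not a measure of all GRTH mRNA in KI. Libraries were also compared in pairs by an index of the median squared difference of their counts, in which 1 stands for counting noise alone. The lowest index, 1.59, was between the library labelled KI 4 and KO 2. The pairs KO 4 and 5, WT 1 and 2, KI 1 and 2, KI 3 and 5, WT 3 and 4, and WT 5 and 6 had an index between 2.12 and 3.02, and no other pair was below 4.64. Libraries this close may not be separate samples, so that p-values over 6 libraries would be too small, and the genes called below were also tested with each close pair of a genotype summed and KI 4 left out, which leaves 3 units in WT, 5 in KO and 3 in KI.

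Marker genes were used to check the labelled cell type. The 5 round spermatid markers, of which Crem was the most abundant, summed to 711 to 1093 CPM per WT library, 494 to 982 CPM per KO library and 485 to 677 CPM per KI library. Of these, 1 was lower in KO and 3 were lower in KI (edgeR), beside 13.5% and 15.4% of all tested genes. With close libraries summed and KI 4 left out, 1 was lower in each, beside 7.62% and 6.87%. The list median on the log2 scale was -0.27 in KO and -0.54 in KI with all libraries, and -0.32 and -0.48 in that fit. Crem, which codes for a transcription factor of round spermatids, changed by -0.60 in KO and -0.73 in KI on the log2 scale (edgeR, adjusted p = 0.00190 and 0.000284), and its libraries in either mutant did not overlap WT. The 8 elongating spermatid markers, led by Prm2, summed to between 11320 and 15650 CPM in WT, between 1384 and 2993 CPM in KO and between 1629 and 2720 CPM in KI, and all 8 were lower past 1 log2 unit in both mutants. Per the study, mRNA of Tnp2 and Prm2 is already made in RS and stored there for later translation. This sum is therefore not a measure of elongating cells in a library. The 6 Leydig cell markers, of which Star was the most abundant, summed to 9.76 to 19.7 CPM in WT, 29.9 to 52.0 CPM in KO and 13.4 to 66.1 CPM in KI, and all 6 were higher by any amount in both. With close libraries summed and KI 4 left out, 8 of the elongating spermatid markers were lower past 1 log2 unit in KO and 7 in KI, and 6 of the Leydig markers were higher by any amount in KO and 5 in KI (edgeR). The 7 spermatocyte markers, led by Sycp2, lay at 785 to 1060 CPM in WT, 844 to 1065 CPM in KO and 814 to 1212 CPM in KI. The sum is mostly Sycp2, and single members moved in both directions: Sycp3 was higher without overlap, at 167% of WT in KO and 168% in KI (edgeR, adjusted p = 0.000689 and 0.000559), Hormad1 was higher in KO, Spo11 lower in both and Meiob lower in KO. When close libraries were summed and KI 4 left out, 1 of the 7 was higher and 0 were lower in each mutant. No marker of these lists was at 0 in every library. The part of these markers in the differences below was not tested, and in bulk RNA fewer cells of a type and less RNA per cell cannot be told apart.

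The genes lie apart from each other in the genome, with coordinates here in GRCm38 from the deposited GENCODE M18 gene models. The pore genes are Catsper1 (ENSMUSG00000038498, chr19:5335741-5344153, plus strand), Catsper2 (ENSMUSG00000033486, chr2:121392631-121413792, minus strand), Catsper3 (ENSMUSG00000021499, chr13:55784568-55808998, plus strand) and Catsper4 (ENSMUSG00000048003, chr4:134211970-134227383, minus strand). The genes of the extracellular subunits are Catsperb (ENSMUSG00000047014, chr12:101404653-101626009, plus strand), Catsperd (ENSMUSG00000040828, chr17:56628143-56664456, plus strand), Catsperg1 (ENSMUSG00000049676, chr7:29181321-29214035, minus strand) and Catsperg2 (ENSMUSG00000049123, chr7:29697219-29727032, minus strand). The cytoplasmic pair is coded by Catsperz (ENSMUSG00000050623, chr19:6922426-6925380, minus strand) and Efcab9 (ENSMUSG00000044056, chr11:32522751-32532081, minus strand). Counts cover the exons of each model. Catsperg1 and Catsperg2 are near copies, with 43.0% and 44.1% of the 50-base stretches of their transcripts also found in the other gene, and reads that map to more than 1 place were not counted, so their levels are uncertain. Catsperz shares 33.9% of its 50-base stretches with Kcnk4 and Catsperb 9.27% with Gm18795. No stretch of Catsper1, Catsper2, Catsper3, Catsperd or Efcab9 was found in another gene.

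RefSeq promoter windows of GRCm38.p6, from 250 bases before to 50 bases after a start site, were found for 8 of the 10 genes, with 10 windows in all. Those of Catsper2 and Catsper3 are shown, because these are the pore genes called in KO, and their start sites lie 0 and 11 bases from the start of the gene model used for counting. The 250 bases before each start site are printed 5′ to 3′ on the strand of the gene, Catsper2 from chr2:121413793-121414042 (minus strand) and Catsper3 from chr13:55784329-55784578 (plus strand), and capitals mark the letters CGTCA, the reverse complement of TGACG, which is one side of a cAMP response element (CRE), the sequence that CREM binds.
Catsper2: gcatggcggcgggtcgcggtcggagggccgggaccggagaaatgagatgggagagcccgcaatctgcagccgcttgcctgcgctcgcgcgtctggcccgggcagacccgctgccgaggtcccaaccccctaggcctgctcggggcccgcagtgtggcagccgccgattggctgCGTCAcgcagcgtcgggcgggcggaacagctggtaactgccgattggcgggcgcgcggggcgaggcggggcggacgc
Catsper3: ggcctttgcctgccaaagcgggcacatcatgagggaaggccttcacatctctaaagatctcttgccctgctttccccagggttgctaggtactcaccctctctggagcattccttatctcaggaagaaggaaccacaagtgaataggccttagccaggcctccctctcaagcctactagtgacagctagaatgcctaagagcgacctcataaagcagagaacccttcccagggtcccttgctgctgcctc
The stretch before Catsper2 was 74.8% G and C and that before Catsper3 54.0%, and the whole windows held 41 and 3 CG dinucleotides, beside a median of 7.0 over all 32851 promoter windows. TGACG on either strand was in windows of 2 of the 8 genes, Catsper2 and Catsperd, and in 20.8% of all windows. The full palindrome TGACGTCA was in none of the 8 and in 1.79% of all windows. The X-box, a motif of RFX factors, was in none of the 8 and in 0.298% of all, and its first part, GTTGCC, was in 1 of them, Efcab9, and in 12.5% of all. TATAAA was in 1, Catsperg1, and in 13.6% of all. The start site of the Efcab9 window lies 4507 bases inside the gene model used for counting, and that of Catsperd with TGACG lies 1096 bases before the model. These matches are descriptions of letters only.

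In WT RS, the subunit mRNAs differed widely in level per length. Levels per length, in CPM per kilobase of exon, spanned 17.3-fold between the highest and the lowest gene mean. The genes of the cytoplasmic pair came first, with Catsperz at 349 ± 25.8 and Efcab9 at 199.5 ± 36.04 CPM per kilobase (SD, n = 6). Catsper2 followed at 102.5 ± 8.22 CPM per kilobase and was the highest of the pore genes. These 3 genes did not overlap their next neighbour in any WT library. From there on each gene overlapped the next: Catsper3 was at 62.4 ± 16.5, Catsperd at 53.2 ± 8.61 and Catsper1 at 51.3 ± 10.9 CPM per kilobase. Catsperg1 and Catsperg2 were at 38.8 ± 11.6 and 33.6 ± 7.82, Catsperb at 23.7 ± 3.29 and Catsper4, the lowest, at 20.2 ± 8.52 CPM per kilobase. The values of Catsperg1 and Catsperg2 may be too low. They were divided by the full exon length, while reads that map to both genes were not counted, so the places of these genes are uncertain. Among the 4 pore genes, Catsper2 lay above the other 3 in every WT library.

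**Figure D1:**
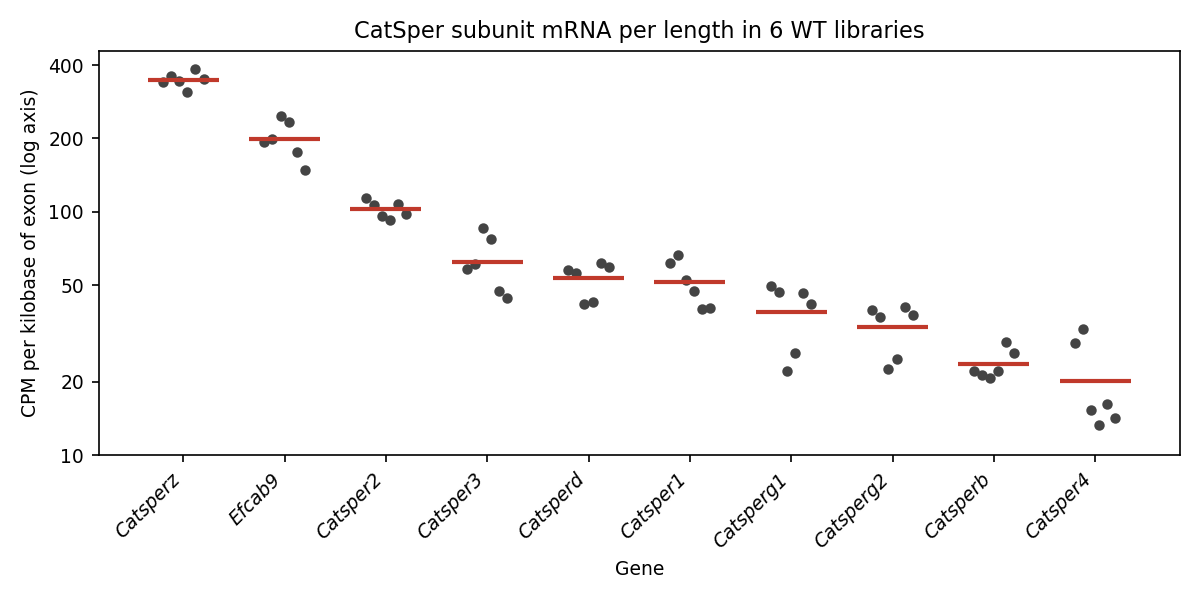
Level of each subunit gene in the 6 WT libraries, in CPM per kilobase of exon on a log axis, ordered by mean. Points are libraries and red lines are means. Catsperz, Efcab9 and Catsper2 stand clear of the gene after them, and the other 7 genes form an overlapping series from 62.4 down to 20.2. Catsperg1 and Catsperg2 may be too low, since reads that map to both were not counted.

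Of the 10 subunit genes, 3 were lower in KO than in WT RS at an adjusted p under 0.1 for a change of any amount (edgeR), namely Catsper2, Catsper3 and Efcab9, and 0 were higher, also at an unadjusted p under 0.05. Over all tested genes, 13.5% were lower, 16.4% higher and 29.9% called in either direction. The median log2 fold change of the 10 genes was -0.23, beside 0.03 over all tested genes. When tested for a change past 1 log2 unit, 0 of the 10 were called, also 0 at an unadjusted p under 0.05, where 1.73% of all tested genes were called. Libraries of KO and WT did not overlap in 1 gene, Efcab9, which was lower, and in 0 genes higher, beside 6.44% lower and 6.62% higher over all tested genes.

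Of the same genes, 3 were lower in KI than in WT RS (edgeR), namely Catsper1, Catsper3 and Efcab9, and 0 were higher, also at an unadjusted p under 0.05. Over all tested genes, 15.4% were lower, 16.1% higher and 31.6% called in either direction. The median log2 fold change was -0.22, beside 0.05 over all tested genes. Past 1 log2 unit 0 of the 10 were called, also 0 at an unadjusted p under 0.05, and 1.95% of all tested genes were. Again only Efcab9 of the 10 had no overlap between KI and WT libraries, with 7.91% of all tested genes lower and 5.97% higher without overlap. The KO and KI comparisons use the same WT libraries, and their values are given side by side for that reason.

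Between KI and KO, 0 of the 10 genes differed, and 0 had an unadjusted p under 0.05 (edgeR), as also with DESeq2 in adjusted p. Few genes of the whole table were called, 0.0237% lower, 0.076% higher and 0.0997% in either direction, and 0.00475% past 1 log2 unit, which was 1 gene. Without KI 4 the share was 0.24% lower and 0.522% in either direction, with 15 genes past 1 log2 unit, and still 0 of the 10 subunit genes were called. With all libraries, the log2 fold changes of the 10 lay between -0.30 for Catsper4 and 0.24 for Catsperg1. For Efcab9 the 95% interval of the difference ran from -0.45 to 0.20, and for Catsper3 from -0.57 to 0.13, so that smaller differences between the mutants could not be seen with these libraries.

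**Figure D2:**
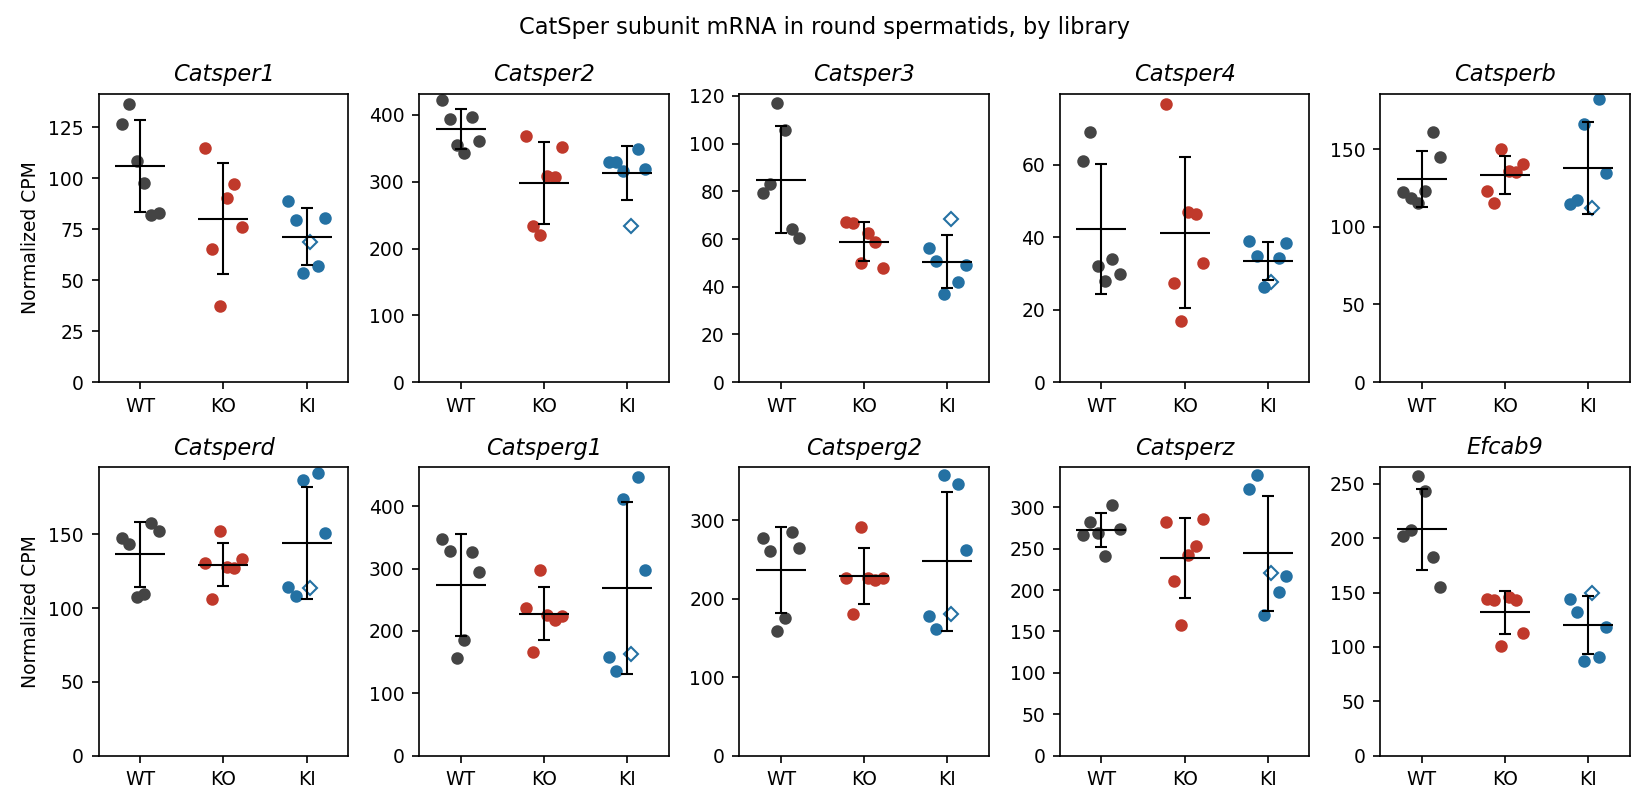
Normalized CPM of each subunit gene in every library, by genotype. Points are libraries, the open diamond is the library labelled KI 4, and black bars are the mean and SD over 6 libraries. For Efcab9 all 12 mutant libraries lie below the lowest WT library, and the other 9 genes overlap.

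Efcab9, which codes for the EF-hand calcium-binding subunit, had the largest fall of the 10 genes in both mutants. Its level in WT libraries ran from 155.5 (lowest) through 205 (median) to 257 CPM (highest). In KO the lowest, median and highest were 101, 143 and 146 CPM, and in KI they were 87.3, 125 and 150 CPM. All 12 mutant libraries were below the lowest WT library, with KI 3 and KI 5 the lowest of all. The log2 fold change was -0.66 in KO (edgeR, standard error [SE] 0.16, adjusted p = 0.00362), while KI RS had -0.79 (edgeR, SE 0.16, adjusted p = 0.000698), with means at 63.3% and 57.9% of WT. With close libraries summed and KI 4 left out it was -0.69 in KO (adjusted p = 0.0302, edgeR) and -0.82 in KI (adjusted p = 0.0311, edgeR), and it was called under all alternatives tried.

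Catsperz codes for the partner of EFCAB9, and its mRNA was not called in either mutant. Its levels had a median of 271 CPM in WT (241 to 302), 248 CPM in KO (157 to 285) and 218 CPM in KI (169 to 339). KI 1 and KI 2 lay above every WT library, at 322 and 339 CPM, the other 4 KI libraries lay below every WT library, and so did KO 2 and KO 3. The log2 fold change was -0.19 in KO (adjusted p = 0.471, edgeR) and -0.16 in KI (adjusted p = 0.551, edgeR). Without 1 library at a time it lay between -0.25 and -0.0962 in KO, the smallest without KO 3, and between -0.28 (without KI 2) and -0.0722 (without KI 3) in KI, and was not called in any of these fits.

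The ratio of Efcab9 to Catsperz within each library is given as a description without a test, as 1 of 3 pairs of subunits chosen after the values were seen. Its log2 had a mean of -0.41 ± 0.34 in WT (SD, n = 6), -0.84 ± 0.28 in KO (SD, n = 6) and -1.004 ± 0.28 in KI (SD, n = 6). All 6 libraries of each mutant lay below the WT mean, and the ranges overlapped, since WT 5 and WT 6 were at -0.72 and -0.82. The log2 ratio of Catsper3 to Catsper4, another of these pairs, had a mean of 1.06 ± 0.71 for WT, 0.66 ± 0.65 for KO and 0.59 ± 0.36 for KI libraries (SD, n = 6). Its differences from WT, -0.40 in KO and -0.47 in KI, were less than the SD within WT.

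Catsper3 was the pore gene with the largest fall in KI and in KO. Its level ran from 60.3 (lowest) through 81.2 (median) to 117 CPM (highest) in WT, from 48.1 through 60.8 to 67.1 CPM in KO, and from 37.1 through 49.8 to 68.4 CPM in KI. The groups overlapped because WT 5 and WT 6 were low, at 64.3 and 60.3 CPM, and the highest KI library was the one labelled KI 4. Without it the KI libraries ended at 56.2 CPM, below all of WT. The log2 fold change was -0.53 in KO (edgeR, SE 0.17, adjusted p = 0.0246), while KI RS had -0.75 (edgeR, SE 0.17, adjusted p = 0.00199). With close libraries summed and KI 4 left out it was -0.54 in KO (adjusted p = 0.0924, edgeR) and -0.81 in KI (adjusted p = 0.0343, edgeR).

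Catsper1 codes for the pore subunit with a histidine-rich cytoplasmic end. Its libraries ran from 81.9 through 103 to 136 CPM in WT, from 37.4 through 83.1 to 115 CPM in KO, and from 53.4 through 74.0 to 89.0 CPM in KI. Of the KI libraries, 5 of 6 were below the lowest WT library, as were 3 of the 6 KO libraries, and library KO 3 was the lowest of all. The log2 fold change was -0.57 in KI (SE 0.21, adjusted p = 0.0477, edgeR) and -0.40 in KO (SE 0.21, adjusted p = 0.176, edgeR). The KI call did not hold with close libraries summed and KI 4 left out, where the log2 fold change was -0.50 with an SE of 0.31 (adjusted p = 0.387, edgeR), nor without WT 1, WT 2 or KI 3. The KO value passed without KO 1, at -0.53 (adjusted p = 0.0658, edgeR), and was smallest without KO 3, at -0.25.

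Catsper2, the most abundant of the pore genes, was called in KO. The lowest, median and highest library were 343, 378 and 422 CPM in WT, 220, 308 and 369 CPM in KO, and 233, 324 and 350 CPM in KI. In KO, 4 of 6 libraries were below the lowest WT library, with KO 2 and KO 3 the lowest at 233 and 220 CPM. In KI, 5 of 6 were below it, of which the library labelled KI 4 was at 233 CPM and the other 4 between 316 and 329 CPM. The log2 fold change was -0.34 in KO (edgeR, SE 0.14, adjusted p = 0.0759), while KI RS had -0.28 (edgeR, SE 0.14, adjusted p = 0.155). The KO call did not hold with close libraries summed and KI 4 left out, where the log2 fold change was -0.36 with an SE of 0.19 (adjusted p = 0.282, edgeR), at an adjusted p threshold of 0.05, with no filter on low counts (adjusted p = 0.156, edgeR) or without any 1 of WT 1, 2 and 5 and KO 2, 3, 4 and 5.

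Catsper4 was not called, and its SD within WT and within KO exceeded the differences between the genotype means. Its libraries ran from 28.0 through 33.1 to 69.2 CPM in WT, from 16.95 through 39.6 to 76.7 CPM in KO, and from 26.2 through 34.6 to 38.9 CPM in KI. In WT the close pair WT 1 and WT 2 stood at 60.9 and 69.2 CPM and the other 4 libraries at 34.1 CPM or less. The log2 fold change was -0.04 in KO (adjusted p = 0.944, edgeR) and -0.34 in KI (adjusted p = 0.418, edgeR), with a 95% interval from -0.62 to 0.54 in KO, so that a moderate change either way was not detectable. The sign in KO turned without WT 1, WT 2, KO 2, KO 3 or KO 6.

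**Figure D3:**
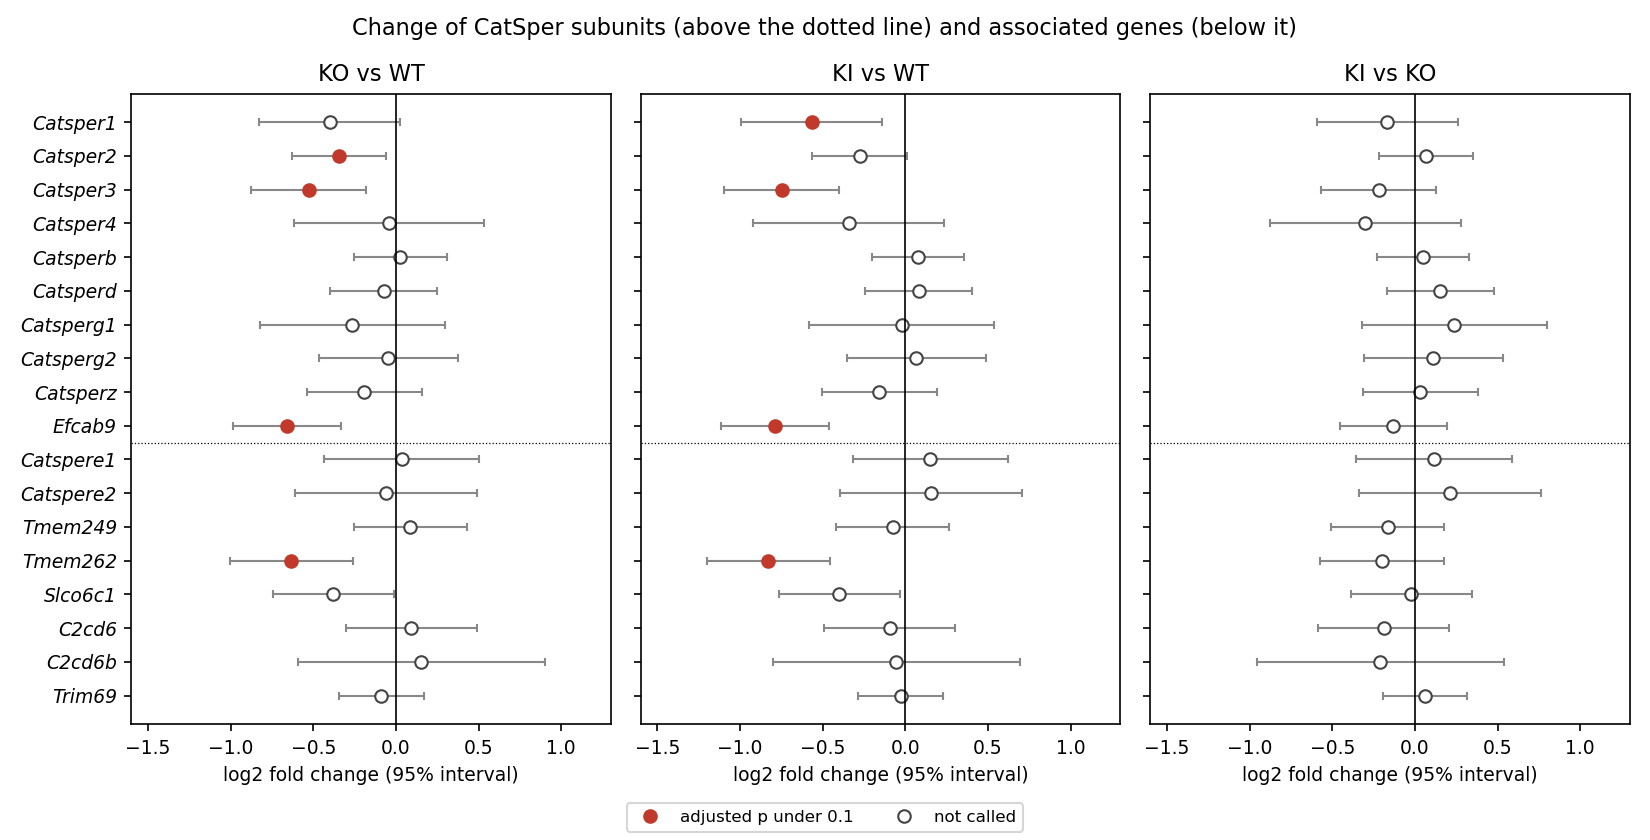
Log2 fold change with its 95% interval for the 10 subunit genes (above the dotted line) and 8 further CatSper-associated genes (below it), in KO against WT, KI against WT and KI against KO. Filled red points have an adjusted p under 0.1 (edgeR). Catsper3, Efcab9 and Tmem262 are red in both comparisons with WT, and none is red between KI and KO.

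The genes of the extracellular auxiliary subunits were not called in either mutant. Catsperb had means of 131 ± 18.2 CPM in WT, 133 ± 12.5 CPM in KO and 138 ± 29.7 CPM in KI (SD, n = 6). Its 95% interval was from -0.25 to 0.31 on the log2 scale in KO and from -0.20 to 0.36 in KI. Catsperd had means of 136 ± 22.1 CPM in WT, 130 ± 14.7 CPM in KO and 144 ± 38.0 CPM in KI, with intervals from -0.40 to 0.25 and from -0.24 to 0.40. In this fit of all libraries, both excluded a fall as large as that estimated for Efcab9 in the same comparison, although the difference between these genes was not tested. If close pairs are not separate samples, these intervals are too narrow. Adjusted p for these 2 genes was between 0.741 and 0.920 in both comparisons (edgeR).

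Catsperg1 and Catsperg2 code for 2 forms of the γ subunit in the mouse. Catsperg1 had 273 ± 81.8 CPM in WT, 228 ± 42.1 CPM in KO and 269 ± 137 CPM in KI (SD, n = 6). Catsperg2 had 237 ± 55.0, 229 ± 35.2 and 247 ± 88.3 CPM. In KI, Catsperg1 ranged over 3.30-fold, from 136 CPM in KI 2 to 447 CPM in KI 5, so that the mean stands for few of the libraries. The log2 fold changes of Catsperg1 were -0.26 in KO (adjusted p = 0.551, edgeR) and -0.02 in KI (adjusted p = 0.968, edgeR), the latter turning sign under other scaling (0.0045 with DESeq2 size factors). Those of Catsperg2 were -0.05 and 0.06 (edgeR, adjusted p = 0.911 and 0.864). The log2 ratio of Catsperg1 to Catsperg2, the last of the 3 pairs and also without a test, had a mean of 0.18 ± 0.14 for WT, -0.01 ± 0.07 for KO and 0.03 ± 0.25 for KI libraries (SD, n = 6). It ran from -0.02 to 0.34 in WT, from -0.13 to 0.06 in KO and from -0.25 to 0.37 in KI, so that the groups overlapped.

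The level of the subunit genes within a genotype moved in blocks of libraries. WT 3 and WT 4 had the highest Efcab9 of all libraries (257 and 243 CPM) and the highest Catsper3 (117 and 105 CPM), and the lowest Catsperg1 of WT (156 and 185 CPM). KI 3 and KI 5 were the reverse, with the lowest Efcab9 (87.3 and 90.7 CPM) and Catsper3 (37.1 and 42.2 CPM) of all and the highest Catsperg1 (412 and 447 CPM). KI 3 and KI 5 also held the highest sums of spermatocyte markers, 1212 and 1194 CPM, and WT 3 the lowest, 785 CPM, while WT 4 was at 894 CPM, within the range of the other WT libraries. WT 3 and 4, and KI 3 and 5, are close pairs by the index above, and whether the libraries of a pair are separate samples was not tested. KO 3 had the lowest Catsper1 (37.4 CPM), Catsper2 (220 CPM), Catsper4 (16.95 CPM) and Catsperz (157 CPM) of all libraries, while its Catsperb, Catsperd, Catsperg1 and Catsperg2 were the highest of KO (150, 152, 297 and 291 CPM). Its markers stood apart too, with the highest spermatocyte sum of KO (1065 CPM), the lowest round spermatid sum of KO (494 CPM) and the lowest elongating spermatid sum of all libraries (1384 CPM). The round spermatid sums of KI 3 and KI 5 were the lowest of KI, at 485 and 536 CPM. The part of these markers in the pattern was not tested.

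**Figure D4:**
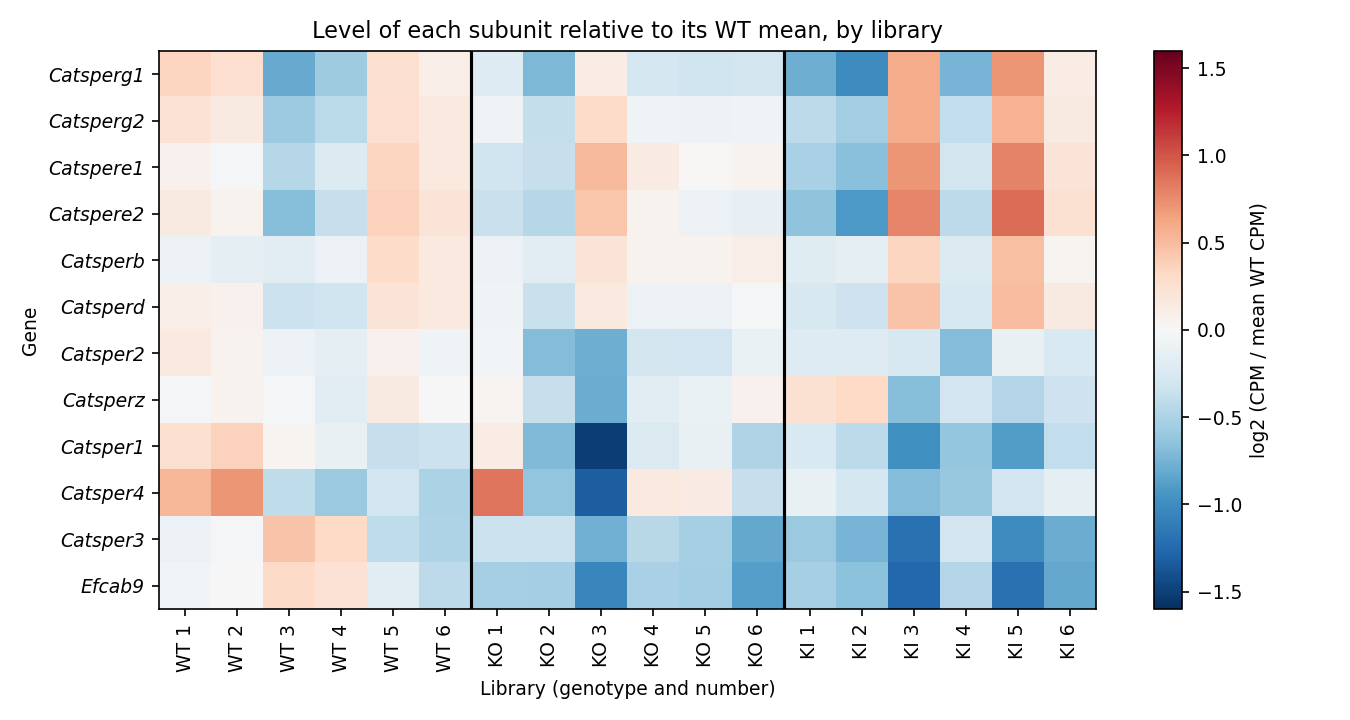
Level of 12 CatSper genes (rows) in the 18 libraries (columns), as the log2 of CPM over the WT mean of the gene. Red is above and blue below the WT mean. In KI 3 and KI 5 Catsperg1, Catsperg2, Catspere1 and Catspere2 are above their WT means while Catsper3 and Efcab9 are below, and WT 3 and WT 4 are opposite.

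Genes for further parts of the complex were taken from a list of 8, all of them tested. A single gene, 1 of the 8, was lower in KO and also in KI, and 0 were higher, with list medians of -0.01 and -0.07. Over all tested genes 13.5% were lower in KO and 15.4% in KI, so that this share is near the background. The gene was Tmem262, which codes for a small transmembrane subunit and was low in all genotypes, at 8.83 ± 1.11 CPM in WT, 5.70 ± 1.32 CPM in KO and 4.96 ± 1.32 CPM in KI (SD, n = 6). Its log2 fold change was -0.63 in KO (edgeR, SE 0.18, adjusted p = 0.0123), while KI RS had -0.83 (edgeR, SE 0.18, adjusted p = 0.00147), and it stayed called with close libraries summed and KI 4 left out (edgeR, adjusted p = 0.0814 and 0.0512). KI libraries did not overlap WT and 5 of 6 KO libraries were below the lowest WT library. Not called were Catspere1 and Catspere2, copies of the ε subunit gene that share sequence, with 0.04 and -0.06 in KO and 0.15 in each in KI, and Tmem249, which codes for another small transmembrane subunit, C2cd6, C2cd6b, Trim69 and the transporter gene Slco6c1, which had -0.38 in KO and -0.40 in KI (edgeR, adjusted p = 0.131 and 0.103). Without KI 4, Slco6c1 was called lower in KI, at -0.45 (edgeR, adjusted p = 0.0855), and with close libraries also summed it was not, at -0.44 (edgeR, adjusted p = 0.340).

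Of 15 other genes of sperm ion transport and calcium signalling, 12 were tested, and Hvcn1, Slc26a3 and Trpv4 were too low. Of these, 4 were lower and 0 higher in KO, and 4 were lower and 1 was higher in KI, with list medians of -0.09 and 0.08. Over all tested genes, 13.5% were lower and 16.4% higher in KO, and 15.4% and 16.1% in KI. Kcnu1, which codes for the SLO3 potassium channel of sperm, was at 111 ± 16.2 CPM in WT, 84.1 ± 15.1 CPM in KO and 79.6 ± 12.1 CPM in KI (edgeR, adjusted p = 0.0419 and 0.0146). Its auxiliary subunit gene Lrrc52 was not called, at 20.8 ± 4.93, 27.2 ± 5.13 and 25.1 ± 5.66 CPM. Adcy10, which codes for the soluble adenylyl cyclase, was 404 ± 41.3 CPM in WT, 304 ± 77.2 CPM in KO and 309 ± 44.8 CPM in KI (edgeR, adjusted p = 0.0634 and 0.0762). With close libraries summed and KI 4 left out, neither was called, with log2 fold changes of -0.44 and -0.43 for Kcnu1 (edgeR, adjusted p = 0.156 and 0.261), beside -0.40 and -0.48 with all libraries, and of -0.46 and -0.28 for Adcy10 (edgeR, adjusted p = 0.211 and 0.568), beside -0.41 and -0.39. The KI call of Adcy10 was also lost without KI 4 alone (edgeR, adjusted p = 0.156).

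The largest falls on that list were in Plcz1 and Akap4. Plcz1, the sperm phospholipase that starts calcium oscillations in the egg, changed by -1.29 in KO and -1.32 in KI (edgeR, adjusted p = 0.000341 and 0.000230), and it stayed called with close libraries summed and KI 4 left out (edgeR, adjusted p = 0.00939 and 0.0599). Akap4, the main protein of the fibrous sheath of the sperm tail, changed by -2.10 and -2.34 and was the only gene of that list called past 1 log2 unit (edgeR's glmTreat, adjusted p = 0.00389 and 0.000413). With close libraries summed and KI 4 left out, the change of Akap4 was -2.21 in KO and -2.25 in KI. It stayed called by any amount there (edgeR, adjusted p = 0.000158 and 0.000815). In the same fit glmTreat gave Akap4 an adjusted p of 0.0553 in KO and 0.117 in KI. The KI call past 1 log2 unit was thus lost, with a fold change of similar size. Plcz1 and Akap4 had no overlap between WT and either mutant. Slc26a8, an anion transporter gene, was higher in KI by 0.31 (adjusted p = 0.0829, edgeR), and with close libraries summed and KI 4 left out its change was 0.41 with an SE of 0.20 and was not called (adjusted p = 0.239, edgeR). Among the 10 subunit genes the largest estimated fall, that of Efcab9, had a 95% interval whose lower end was -0.99 in KO and -1.12 in KI.

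The genes whose level over the 18 libraries was nearest to the mean profile of the 10 subunit genes, by the root mean square difference of centred log2 CPM among 8508 genes, were Fmn1 (0.0792), Braf (0.0806), Zdbf2 (0.0940), Col4a3bp (0.0954) and Zfp558 (0.101). Catsper2 was the subunit gene nearest to that mean (0.128) and Catsperg1 the farthest (0.449). The 5 genes were picked for their closeness, so their values are no measure of how alike the subunit genes are.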

How the data were processed

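The authors trimmed the paired reads (cutadapt 3.4), mapped them to GRCm38 (STAR 2.7.8a) and counted them by strand on GENCODE M18 genes with featureCounts (Subread 2.0.1). The deposited table holds raw counts for 54232 genes in 18 libraries, and 0 columns of values were without a library. The counts were used without change. Symbols came from GENCODE M21, for 54079 identifiers, and promoter windows from RefSeq. Genotype and number of each library came from its label.

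Differences were tested with edgeR 4.0.16 (R 4.3.3, limma 3.58.1). The filter filterByExpr left 21058 genes, TMM factors set the scale, and 1 quasi-likelihood model of genotype covered all libraries. Changes of any amount were tested with glmQLFTest and changes past 1 log2 unit with glmTreat in its worst case form, with Benjamini-Hochberg adjustment over all tested genes and a threshold of 0.1. Ratios of subunits within a library are given without a test. Libraries of 1 genotype with a pair index under 4 were summed in 1 alternative. DESeq2 1.42.0 was another alternative. Fits without a library, with the replicate number as a block, with other filters, scaling and thresholds were also run.

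The genes named are the 10 subunit genes, Ddx25, 2 lists of other genes, marker lists of testis cell types and the 5 genes nearest to the mean profile. These members and lists were chosen with earlier results of these data known. Leydig, elongating spermatid, round spermatid and spermatocyte markers are described with the results. The log2 fold changes of spermatogonium markers (7) had a median of 0.55 in KO and 0.26 in KI, Sertoli markers (7, of which 6 tested) -0.37 and -0.33, macrophage markers (4) 0.51 and 0.83, endothelial markers (3) -0.18 and 0.09, and peritubular myoid markers (3) 0.87 and 0.35. Without KI 4 the KI median turned sign for the spermatogonium markers, to -0.0729, and for the endothelial markers, to -0.0678. With close libraries also summed these medians were -0.052 and -0.0472. Members of the endothelial and peritubular myoid lists moved apart: Tek was higher (1.62 and 1.33), Cnn1 higher (2.43 and 1.76), Acta2 higher in KO (0.87) and Myh11 lower (-1.54 and -1.73). The intervals of fold changes are at 95%. PCR copies cannot be told from separate molecules without molecular identifiers, and p-values measure only the spread between these libraries, which may be technical.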

Additional observations from a re-analysis of the deposited data

Results flagged for a closer look

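Catsper2 stood at 233.2 CPM in the library labelled KI 4, apart from the other 5 KI libraries, which lay between 315.8 and 349.5 CPM. The gap to the nearest library was 0.71 of the whole range of KI, above the critical value of 0.625 for 6 samples. It was the 1 such case among 30 groups of a gene and a genotype, and chance gives about 1 in 20. KO 2, the library closest to the one labelled KI 4, also had 233 CPM of Catsper2, and Ddx25 in KI 4 was in the range of KO. The cause was not tested.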

How the results depend on the processing

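Efcab9 and Catsper3 were called lower in KO and in KI under each alternative run, with log2 fold changes of -0.74 to -0.59 (Efcab9) and -0.61 to -0.42 (Catsper3) in KO without 1 library at a time, and -0.86 to -0.66 and -0.85 to -0.58 in KI. The number of subunit genes called lower went from 2 to 4 in KO and from 2 to 3 in KI over the alternatives, while the share of all tested genes called lower went from 6.5% to 15% in KO and from 6.6% to 17.2% in KI. In the fit of summed close libraries without KI 4, 2 subunit genes were lower in each mutant, beside 7.62% of all tested genes in KO and 6.87% in KI. No subunit gene was higher, past 1 log2 unit or different between KI and KO in any, including the interval form of glmTreat, added after seeing the data. Replicate numbers did not pair the libraries: same-numbered libraries of 2 genotypes correlated with r from -0.44 to 0.48, other numbers with r from -0.45 to 0.52, and the same number correlated best in 7 of 36 cases. With the replicate block the counts stayed at 3 and 3.

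Directions of genes that were not called turned in some fits. Without 1 library at a time, the log2 fold change in KO ranged from -0.3115 to 0.1554 for Catsper4, from -0.0104 to 0.0954 for Catsperb and from -0.1398 to 0.014 for Catsperg2. In KI it ranged from -0.0194 to 0.1477 for Catsperb, from -0.0173 to 0.1551 for Catsperd, from -0.2284 to 0.1124 for Catsperg1 and from -0.0698 to 0.1617 for Catsperg2. Between KI and KO it ranged from -0.0062 to 0.1461 for Catsper2, from -0.0471 to 0.1266 for Catsperb, from -0.0235 to 0.2074 for Catsperg2 and from -0.0846 to 0.1192 for Catsperz, the log2 ratio of Catsper3 to Catsper4 from -0.2457 to 0.1047 and that of Catsperg1 to Catsperg2 from -0.0188 to 0.1044. Catsperb in KO also turned with no filter on low counts (-0.0058), and Catsperg1 in KI with DESeq2 size factors (0.0045), only 2 genotypes (0.0352) and close libraries summed with KI 4 left out (0.1346). The ratios and their alternatives were added after seeing the data. In the order of levels per length in WT, 8 to 10 of the 10 places were kept without 1 library, 8 without WT 5 or WT 6. The cause of these turns was not tested. The SE of the subunit genes' log2 fold changes was 0.13 to 0.28, which limits the differences that can be seen with these libraries.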
